A study of Homo sapiens with 4 samples.

Results

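The genes described here encode 9 proteins that myeloid cells store in granules: MPO, ELANE, PRTN3, AZU1, CTSG, LYZ, PRG2, RNASE2 and SRGN. They were taken by symbol from a count table of 57992 genes, in which each symbol matched 1 row, and 8 of the 9 passed a filter on low counts that left 15193 genes for testing. PRG2 did not pass. The cells were MOLM13, an acute myeloid leukaemia cell line of human origin, and specifically the variant that the labels mark VEN-R (resistant to venetoclax, which blocks the survival protein BCL2). Every library came from this resistant subline after induction with doxycycline, so no untreated or venetoclax-sensitive cells enter any comparison. A control short hairpin RNA (shRNA) was induced in 2 libraries, whose genotype is labelled WT, and in the other 2 an shRNA that targets PRMT9, an enzyme that methylates arginine residues of proteins. The labels give no dose or duration of doxycycline, do not say whether a hairpin line is 1 clone, and do not say whether the numbers 1 and 2 stand for separate cultures, repeats of 1 culture or different hairpins. All p-values below accordingly rest on the spread of these libraries alone, which may be technical.

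Primary (azurophil) granules form at the promyelocyte stage and carry the proteins with which neutrophils and monocytes kill and digest microbes. Elastase (ELANE), proteinase 3 (PRTN3) and cathepsin G (CTSG) are serine proteases that are made as inactive precursors and trimmed by the dipeptidase cathepsin C (CTSC). Azurocidin (AZU1) belongs to the same protein family but has lost its protease activity. Myeloperoxidase (MPO) is a heme enzyme that makes hypochlorous acid, lysozyme (LYZ) cleaves bacterial cell walls, and the small protein core of serglycin (SRGN) carries sulfated sugar chains that hold the basic granule proteins in place. RNASE2 (eosinophil-derived neurotoxin) and PRG2 (major basic protein) are best known from the granules of eosinophils.

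The libraries held 28592902 to 33845172 counts, of which 99.9% fell in the tested genes. PRMT9 was covered by 398 and 406 counts with the control hairpin and by 81 and 78 with its own, so its level after the hairpin was 17.9% of the control level (log2 fold change -2.48, SE 0.12, adjusted p 1.13e-11). All p-values are Benjamini-Hochberg adjusted values from edgeR's quasi-likelihood test over the 15193 genes, and a gene is said to have risen or fallen where this value is below 0.05. By this rule 10327 genes changed, which is 68.0% of those tested, with 33.4% higher and 34.5% lower after PRMT9 shRNA. The 2 groups' CPM values (counts scaled to a common library size, with TMM factors) did not overlap for 83.3% of tested genes. A change of any 1 gene is thus the common case in these libraries, and the sizes below carry more than the calls.

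All 8 tested granule genes changed, and they split evenly: AZU1, LYZ, RNASE2 and PRTN3 rose, and SRGN, MPO, CTSG and ELANE fell. The share called, 8 of 8, has to be read beside 89.7% of the 2019 tested genes with a mean of at least 100 CPM, a level that all tested members but MPO exceed. The median log2 fold change of the 8 was 0.08, beside 0.00 over all tested genes. Their median size of change, in either direction, was 0.43 on the log2 scale, against 0.40 over all tested genes and 0.32 over genes of at least 100 CPM. Together the 9 genes took 0.450% and 0.447% of all counts in the control libraries and 0.479% and 0.484% after PRMT9 shRNA. In bulk RNA, fewer cells of a kind and less RNA per cell cannot be told apart.

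**Figure D1:**
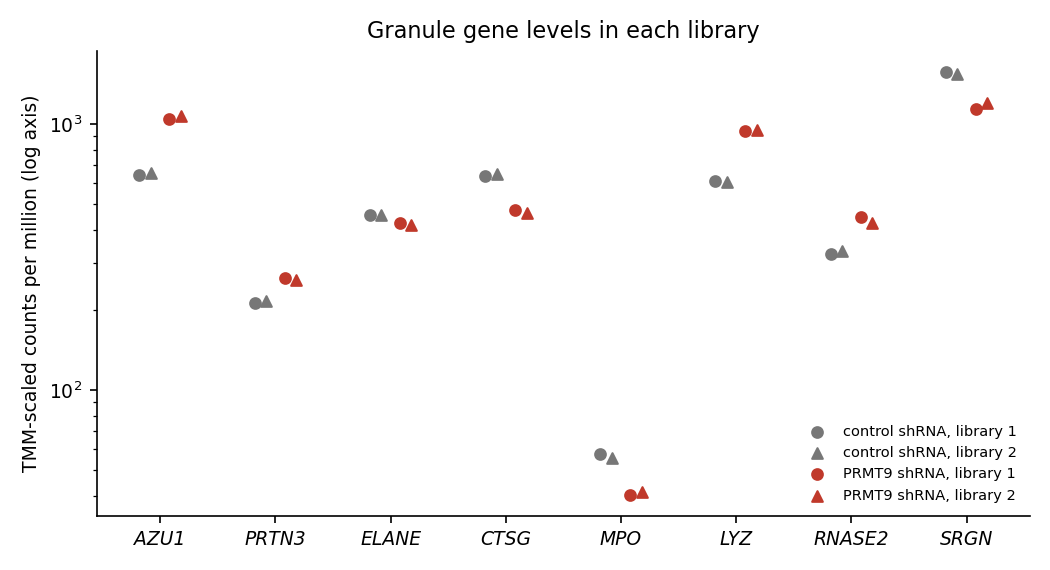
Level of the 8 tested granule genes in each of the 4 libraries, as TMM-scaled CPM on a log axis, with 1 point per library (grey for control shRNA, red for PRMT9 shRNA). AZU1, LYZ, RNASE2 and PRTN3 lie higher in both PRMT9 shRNA libraries, SRGN, CTSG, MPO and ELANE lie lower, and MPO, at 40.5 to 57.5 CPM, is far below the rest.

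Among the members of the serine protease family, AZU1 changed most. Its level was 642 and 656 CPM in the control libraries and 1039.8 and 1071 CPM after PRMT9 shRNA. The groups lie far apart compared with the distance between libraries of a group: 649 ± 9.95 CPM (SD, n = 2) against 1055 ± 21.8. The difference was 1.63-fold (log2 fold change 0.70, 95% interval 0.66 to 0.74, adjusted p 1.47e-14).

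PRTN3, the autoantigen of a form of vasculitis and a protease that cleaves elastin and other matrix proteins, moved the same way by less. It was at 213 and 216 CPM in the control libraries and at 263 and 259 CPM after PRMT9 shRNA, a 1.22-fold rise (log2 fold change 0.28, SE 0.02, adjusted p 1.27e-08). ELANE, whose germline mutations cause severe congenital neutropenia, was at 455 and 454 CPM in the controls and at 424 and 417 CPM after PRMT9 shRNA. Both PRMT9 shRNA libraries were lower, but the fall was small: 92.5% of the control level remained (log2 fold change -0.11, SE 0.02, adjusted p 9.72e-05). Both values depend on how base composition is treated, since the longest transcripts of PRTN3 and ELANE hold 66.4% and 66.8% G and C. Among tested genes the median log2 fold change was -0.11 at up to 40% G and C, the range of SRGN. This median was 0.10 at 60% to 65%, the range of AZU1, and 0.11 above 65%. With offsets for GC content and length, an alternative chosen after seeing the data, the log2 fold change of PRTN3 was 0.11 and that of ELANE -0.30, and both calls held. With upper-quartile scaling, which puts the median of all genes at 0.09, the value of ELANE was -0.03 and it was no longer called (adjusted p 0.288).

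CTSG, the chymotrypsin-like protease of the group, lies on chromosome 14 and fell. Its level was 639 and 646 CPM in the control libraries and 476 and 464 CPM after PRMT9 shRNA, so 73.1% remained (log2 fold change -0.45, SE 0.02, adjusted p 3.76e-12). AZU1 and CTSG began at nearly the same count and ended far apart.

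MPO, the most used marker of the myeloid lineage in leukaemia diagnosis, was present at a modest level in this line. It was at 57.5 and 55.7 CPM in the controls and 40.5 and 41.5 CPM after PRMT9 shRNA. Both PRMT9 shRNA libraries were lower than both controls, with 72.4% of the level remaining (log2 fold change -0.47, SE 0.04, adjusted p 3.49e-08). LYZ, which monocytes as well as neutrophils make, rose from 609 and 605 CPM to 939 and 946 CPM. That is a 1.55-fold difference (log2 fold change 0.64, SE 0.02, adjusted p 1.46e-14), with groups of 607 ± 3.25 and 943 ± 4.89 CPM (SD, n = 2). Of the 50-base stretches in the LYZ transcripts, 35.8% also occur in transcripts of other genes, and how the counting treated reads that map to several places is not given in the sources used here.

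SRGN, which packs the basic proteins into the granule, was the most abundant of the 9 in every library, by CPM and per length. It was at 1569 and 1541 CPM in the controls and at 1139.5 and 1199 CPM after PRMT9 shRNA. The groups did not overlap, and 75.2% of the level remained (log2 fold change -0.41, SE 0.02, adjusted p 5.87e-11). A short misc_RNA gene, Metazoa_SRP, lies within the SRGN interval, with 21 to 54 counts per library.

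RNASE2 was at 325 and 334 CPM in the control libraries and 447 and 426 CPM after PRMT9 shRNA, a 1.33-fold rise (log2 fold change 0.41, SE 0.03, adjusted p 2.32e-10). Its close relative RNASE3, eosinophil cationic protein, was at 12.0 and 12.5 CPM in the controls and 12.2 and 12.0 CPM after PRMT9 shRNA, with overlapping groups (log2 fold change -0.02, adjusted p 0.851). Only 3.26% of the 50-base stretches of RNASE2 occur in other genes, RNASE3 and the lincRNA RP11-84C10.2. For PRG2 the control libraries held 1 count each, and the PRMT9 shRNA libraries 0 and 3. A count of 0 in PRMT9 shRNA library 1 allows up to 0.0970 CPM, counting error alone considered. PRG2 also overlaps RP11-872D17.8 on the same strand, so even these few counts may be shared, and no change was detectable at this depth.

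**Figure D2:**
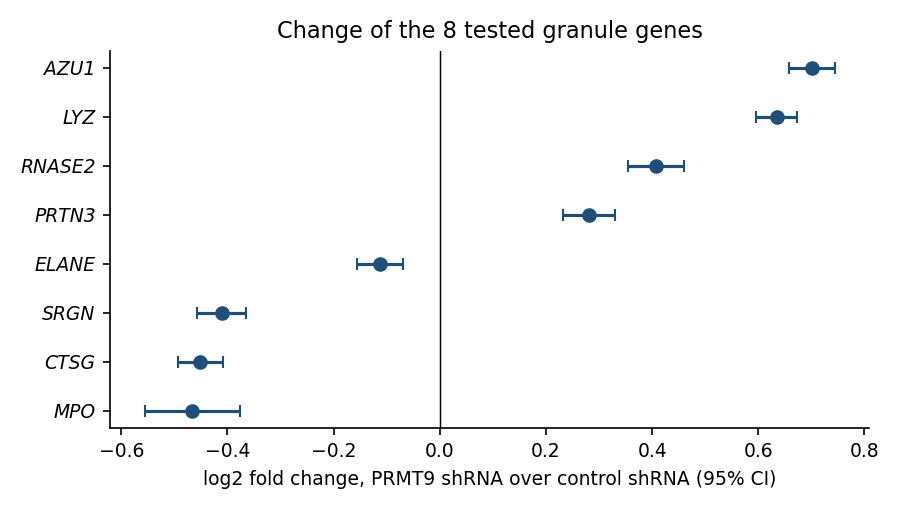
Log2 fold change of the 8 tested granule genes (PRMT9 shRNA minus control shRNA), with bars for the 95% interval of the fit. AZU1 at 0.70 and LYZ at 0.64 stand at one end, MPO at -0.47 and CTSG at -0.45 at the other, and ELANE lies nearest to 0 at -0.11.

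Levels of different genes can be set side by side only per length, for which the authors' deposited RPKM (counts scaled by exon length and library total) serve. In the controls the order from the top was SRGN (mean 1274 RPKM), CTSG (468), ELANE (442), RNASE2 (436), AZU1 (364), LYZ (344), PRTN3 (187) and MPO (16.1), with PRG2 last. The values of ELANE and RNASE2 overlapped between libraries, and all other neighbours in this order were apart. After PRMT9 shRNA, SRGN still led (957), followed by AZU1 (591) and RNASE2 (577), whose values overlapped, then LYZ (533), ELANE (408), CTSG (341.5), PRTN3 (227) and MPO (11.6). CTSG thus went from the second place to below ELANE, and AZU1 from the fifth place to the second.

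Ratios of counts within a library show the same changes without any scaling between libraries. The pairs were chosen after the values were seen, and with 2 libraries against 2 an exact two-sided permutation test cannot go below p = 0.333, so they are descriptions. There were 1.005 and 1.015 counts of AZU1 for each count of CTSG in the controls, and 2.19 and 2.31 after PRMT9 shRNA, a 2.22-fold shift. For AZU1 over ELANE the ratios were 1.41 and 1.45 against 2.46 and 2.57, and for PRTN3 over ELANE 0.467 and 0.476 against 0.620 and 0.621. The 3 neighbours of chromosome 19 therefore changed unequally in both PRMT9 shRNA libraries. LYZ over SRGN went from 0.388 and 0.393 to 0.824 and 0.789. MPO over CTSG was 0.0900 and 0.0862 in the controls and 0.0850 and 0.0893 after PRMT9 shRNA, so these 2 genes on different chromosomes kept overlapping ratios.

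**Figure D3:**
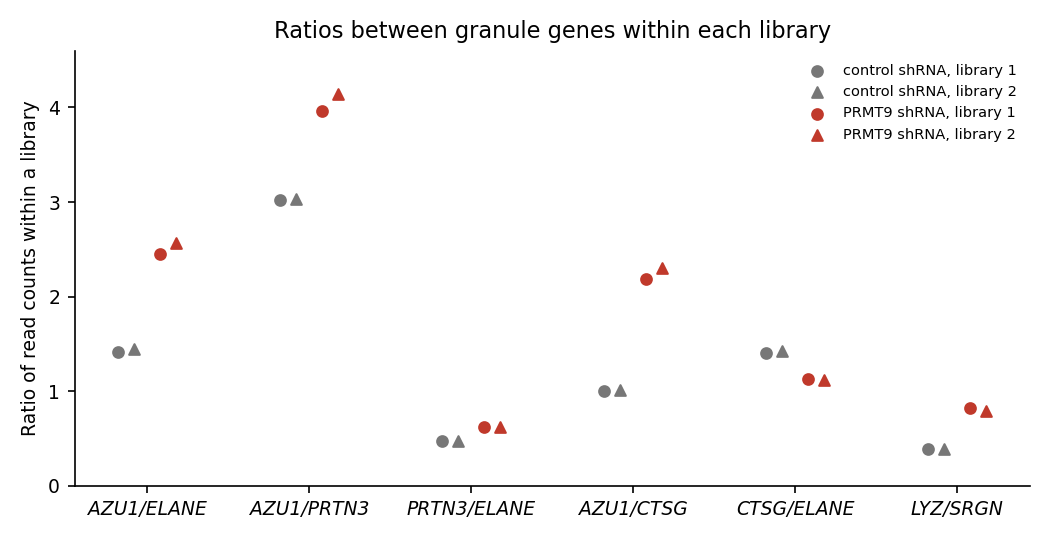
Ratios of read counts for 6 pairs of granule genes, with 1 point per library on a linear axis from 0 (grey for control shRNA, red for PRMT9 shRNA). The groups are apart for each pair: AZU1 over CTSG rises from 1.005 and 1.015 to 2.19 and 2.31, and CTSG over ELANE falls from 1.41 and 1.43 to 1.12 and 1.12.

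AZU1 (ENSG00000172232, chromosome 19, 825097 to 832018), PRTN3 (ENSG00000196415, 840960 to 848175) and ELANE (ENSG00000197561, 851014 to 856247) lie in a row on the plus strand, in GRCh38 coordinates as the file gives them. CFD (complement factor D, or adipsin, a serine protease of the alternative complement pathway) follows at 859643 to 863630. CFD had 84.7 and 85.8 CPM in the controls and 145.2 and 142.4 CPM after PRMT9 shRNA (log2 fold change 0.75, SE 0.03, adjusted p 7.73e-13). AZU1 and CFD at the outer ends thus rose by similar amounts, while PRTN3 and ELANE between them moved by less or fell. On the AZU1 side, PLPPR3 rose by 0.16 and PTBP1, a splicing regulator, fell by 0.31 on the log2 scale. On the CFD side, MED16 (0.18) and ARID3A (0.15) rose and R3HDM4 fell (-0.41). The calls of PLPPR3, MED16 and ARID3A were lost with the GC and length offsets, and that of MED16 also without PRMT9 shRNA library 2 (0.15, adjusted p 0.0669). PALM (0.82) rose farther out, and the microRNA gene MIR3187, which lies within PLPPR3, passed narrowly at 10 to 22 counts per library (adjusted p 0.0499) and was not called with any 1 library left out.

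**Figure D4:**
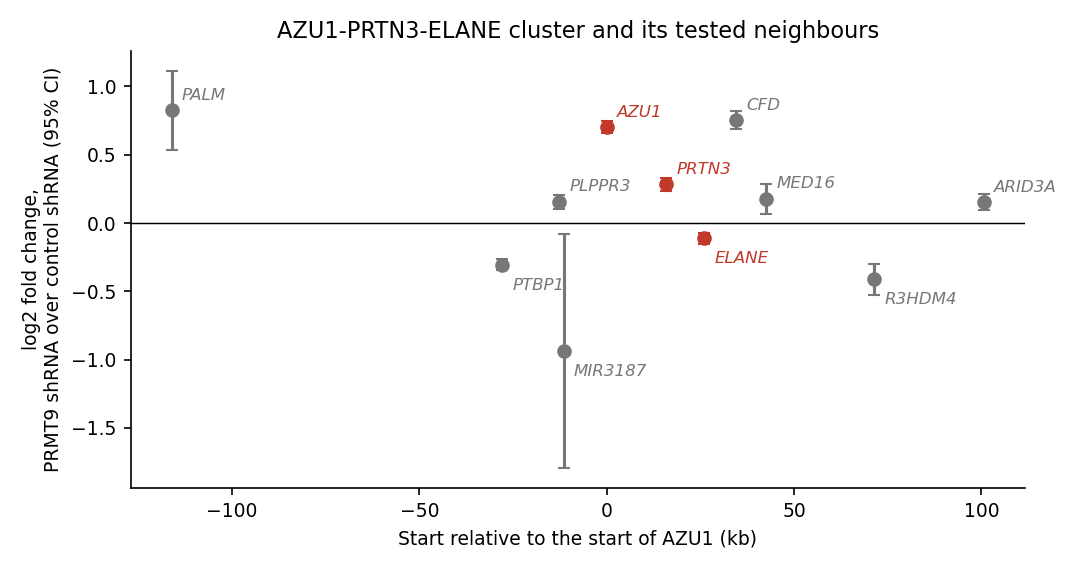
Log2 fold change (PRMT9 shRNA minus control shRNA) of the tested genes around AZU1, PRTN3 and ELANE, against the distance of each gene's start from that of AZU1 in kilobases, with bars for the 95% interval. AZU1 (0.70) and CFD (0.75) lie above PRTN3 (0.28), ELANE (-0.11) and the genes on either side except PALM (0.82), and MIR3187 has the widest interval.

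Around the other members the picture differed from gene to gene. CTSG (ENSG00000100448, chromosome 14, 24573522 to 24576260, minus strand) and RNASE2 (ENSG00000169385, chromosome 14, 20955452 to 20956436, plus strand) lie far apart. MPO (ENSG00000005381) is at 58269856 to 58280935 on the minus strand of chromosome 17, LYZ (ENSG00000090382) at 69348341 to 69354234 on the plus strand of chromosome 12, SRGN (ENSG00000122862) at 69088106 to 69104811 on the plus strand of chromosome 10, and PRG2 (ENSG00000186652) at 57386794 to 57390657 on the minus strand of chromosome 11. Of 36 tested genes within 100 kb of a member, 10 rose, 14 fell and 12 were not called, with a median log2 fold change of -0.12. Over all tested genes 33.4% rose and 34.5% fell. MPO fell, as did SUPT4H1 near it (-0.32), while TSPOAP1 (0.33), TSPOAP1-AS1 (0.82) and LPO (0.28) rose. EPX, MKS1 and MIR142, also near MPO, were not called. LYZ rose while CPSF6 (-0.29) and YEATS4 (-0.32) fell. RNASE2 rose while METTL17 fell (-0.26). All 4 tested genes near or within SRGN fell as SRGN did: VPS26A, a retromer subunit, by 1.25 on the log2 scale (from 131 to 55.3 CPM), Metazoa_SRP (-0.98), KIF1BP (-0.41) and SUPV3L1 (-0.10). The call of SUPV3L1 was lost under 12 of the 19 alternatives, among them leaving out control library 2 (-0.05) or either PRMT9 shRNA library.

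RefSeq start sites (GRCh38.p14) were found for 4 members, AZU1, PRTN3, CTSG and RNASE2. The 250 bases before the start are shown for the 3 genes of the serine protease family, because AZU1 and PRTN3 rose and CTSG fell. The windows are chr19:827587-827836 on the plus strand for AZU1, which lies inside the interval that the file gives to the gene, chr19:840749-840998 on the plus strand for PRTN3, and chr14:24576251-24576500 on the minus strand for CTSG. Capitals mark matches, on either strand, to the C/EBP-type word TTNNGNAA, the MYB-type words CAACNG and TAACNG, the ETS-type word GAGGAA, the RUNX-type word TGNGGT or the TATA-like word TATAAN. These words were chosen after the sequences were seen.
AZU1 promoter: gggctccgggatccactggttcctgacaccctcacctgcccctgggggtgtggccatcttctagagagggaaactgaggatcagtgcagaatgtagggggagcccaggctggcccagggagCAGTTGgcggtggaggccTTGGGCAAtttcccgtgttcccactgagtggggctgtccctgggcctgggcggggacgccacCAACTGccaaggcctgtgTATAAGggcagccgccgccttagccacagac
PRTN3 promoter: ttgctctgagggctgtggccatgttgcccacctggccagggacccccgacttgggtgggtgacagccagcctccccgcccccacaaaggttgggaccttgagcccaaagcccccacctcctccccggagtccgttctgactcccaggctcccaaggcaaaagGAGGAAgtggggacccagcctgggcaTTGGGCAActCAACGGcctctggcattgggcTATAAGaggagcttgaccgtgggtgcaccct
CTSG promoter: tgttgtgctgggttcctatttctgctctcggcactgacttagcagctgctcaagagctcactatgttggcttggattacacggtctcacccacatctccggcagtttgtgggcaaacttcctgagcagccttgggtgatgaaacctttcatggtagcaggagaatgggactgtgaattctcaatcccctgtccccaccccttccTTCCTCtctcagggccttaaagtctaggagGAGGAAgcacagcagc

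AZU1 and PRTN3 share TTGGGCAA (at 111 and 62 bases before the start) and TATAAG (at 31 bases in both), and each has a MYB-type word near the start, CAACTG at 49 bases in AZU1 and CAACGG at 52 in PRTN3. GAGGAA occurs in PRTN3 at 88 bases, and in CTSG at 46 bases on the minus strand and at 16. CTSG holds none of the other words. In RNASE2 the matches were TTGTGCAA at 145 bases, CAACGG at 181 and TATAAG at 219, all on the minus strand. No marked matches overlap each other. Such words are common: of 35116 RefSeq windows of this length, 33.2% hold TTNNGNAA, 27.0% CAACNG, 23.6% GAGGAA, 18.9% TATAAN, 17.6% TAACNG and 37.7% TGNGGT. A match describes these letters and is not evidence of binding.

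Other genes listed for the primary granule or for granule membranes in general did not move as 1 group. Of 15 such genes 9 passed the filter, and of these 3 rose and 6 fell, beside 33.4% and 34.5% over all tested genes. The median of the 9 was -0.17 on the log2 scale beside 0.00 over all tested genes. BPI, the bactericidal protein that binds lipopolysaccharide, rose from 11.2 to 18.5 CPM (log2 fold change 0.72), CFD rose by 0.75, and PRSS57, a further elastase-like protease, rose by 0.10 but fell (-0.08) with the GC and length offsets, and was not called without PRMT9 shRNA library 1 (adjusted p 0.0905). Of the serine proteases related to the members that blood cells make, 3 of 12 were tested: PRSS57 and CFD, and CMA1, mast cell chymase, which was not called (0.24, adjusted p 0.569). The membrane glycoproteins LAMP2 (-0.67, from 225 to 142 CPM) and LAMP1 (-0.29) fell, and RNA does not show in which organelle their proteins lie. The alpha-defensin genes DEFA1, DEFA1B, DEFA3 and DEFA4 had no count in any library.

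Of 16 genes that activate or restrain the granule proteases 12 were tested. Of these 10 rose, 1 fell and 1 was not called (median 0.76), beside 33.4% that rose over all tested genes. With DESeq2 the number that rose was 6, and with limma on log2(RPKM + 1) without a filter it was 5. SERPINB10 (2 and 5 counts in the controls, 15 and 12 after PRMT9 shRNA) and SERPINA1 (5 and 4, then 19 and 14) passed the filter only through the PRMT9 shRNA libraries. They could thus enter the count only as higher, and their values of 1.77 and 1.70 raise the median. SERPINB1, the cytosolic inhibitor of elastase, proteinase 3 and cathepsin G, went from 82.8 and 83.0 CPM to 170.2 and 164.6 CPM (log2 fold change 1.01, adjusted p 2.25e-14). The cystatins CSTB (0.67), CST7 (0.84) and CST3 (0.45), which inhibit cysteine cathepsins, rose as well. CSTA was at 56.9 ± 3.31 CPM against 59.3 ± 1.05 (SD, n = 2), with overlapping groups (log2 fold change 0.06, edgeR adjusted p 0.233). Its value was -0.01 without control library 1, and it was called at 0.13 without control library 2. CTSC, the activating enzyme, was the gene that fell, from 229 and 235 CPM to 160.1 and 160.4 CPM (log2 fold change -0.54, adjusted p 7.04e-12).

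The enzymes that build the sugar chains of serglycin went both ways. Of 25 genes 23 were tested, 9 rose and 8 fell. In a division made after the values were seen, 8 of the 12 tested chondroitin sulfate genes rose and CHPF2 fell (-0.41), with a median of 0.31. Over all tested genes 33.4% rose and 34.5% fell, and a division drawn from these values cannot test a difference between its classes. CHST15, 1 of the 8 (4 and 5 counts in the controls, 29 and 29 after PRMT9 shRNA), passed the filter only through the PRMT9 shRNA libraries. Also among the 8, CHST11, a chondroitin 4-O-sulfotransferase, rose from 189 to 251 CPM (log2 fold change 0.41) and CHSY1, a chain polymerase, by 0.30. Of 5 tested heparan sulfate genes 4 fell, EXT1 (-1.33), EXTL3 (-1.27), EXT2 (-0.47) and NDST1 (-0.20), with a median of -0.47. EXT1 was low, at 61 and 73 counts in the controls, and its call was lost on all 3 log2 RPKM scales (-0.84 to -0.20). Of 6 tested genes for the linker that both kinds of chain share, XYLT1 rose (0.72), B3GALT6 (-0.46), B4GALT7 (-0.26) and FAM20B (-0.12) fell, and the median was -0.14. The calls of B4GALT7 and FAM20B were lost under 9 and 7 alternatives, in both cases also without control library 2 (-0.17 and -0.08), and that of B4GALT7 without either PRMT9 shRNA library.

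Heme synthesis, on which MPO depends, also went both ways: 5 of the 13 tested genes rose and 4 fell (median 0.07). Among all tested genes 33.4% rose and 34.5% fell, so these counts lie near the common shares. The entry enzymes ALAS1 (0.64) and ALAD (0.63) rose, as did CPOX (0.55), PPOX (0.57) and the transporter FLVCR2 (0.53). The last enzyme FECH (-0.45), the mitochondrial carrier SLC25A39 (-0.52) and the heme exporter FLVCR1 (-0.85) were among those that fell.

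Granule sorting, transport and release was represented by 32 tested genes, of which 16 rose and 11 fell (median 0.06). The shares over all tested genes were 33.4% higher and 34.5% lower. NBEAL2, the gene of grey platelet syndrome, rose by 0.91, UNC13D, a priming factor of granule release, by 1.01, and IGF2R, the receptor for mannose 6-phosphate, by 0.49. The GTPase RAB27A rose by 0.43 and LYST, mutated in Chediak-Higashi syndrome, fell by 0.25 (both named outside the rule, after their values were seen). Of 14 tested transcription factors known for control of granule genes, 6 rose and 7 fell, beside 33.4% and 34.5% over all tested genes. CEBPE, among those that rose (4 and 7 counts in the controls, 20 and 12 after PRMT9 shRNA), passed the filter only through the PRMT9 shRNA libraries. CBFB (-0.67) and GFI1 (-0.30), a repressor needed for neutrophil maturation, fell, and SPI1 (0.34), the gene of PU.1, rose. CEBPA (0.15) rose, and RUNX1 (-0.15) and MYB (-0.12) fell, by small amounts, and these too were named after their values were seen. The call of MYB was lost with upper-quartile scaling.

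Genes of the later granules were mostly low. Of 18 specific and gelatinase granule genes 7 were tested: PTX3 (1.51, from 1.98 to 5.63 CPM), MMP25 (0.93), CHIT1 (1.70) and MMP9 (1.40) rose, each at a low level, and CHI3L1 fell (-0.38, from 57.1 to 43.8 CPM). The shares over all tested genes were 33.4% higher and 34.5% lower. CHIT1 (6 and 13 counts in the controls, 31 and 38 after PRMT9 shRNA) and MMP9 (11 and 7, then 35 and 18) passed the filter only with the PRMT9 shRNA libraries. The call of MMP9 was lost under 6 alternatives, among them DESeq2 (adjusted p 0.112), all 3 log2 RPKM scales (0.26 to 0.93) and leaving out PRMT9 shRNA library 1 (0.78, adjusted p 0.274). MMP25 (0.41) and CHIT1 (0.13) were not called with log2(RPKM + 1) and no filter, and CHIT1 ranged from 1.20 to 2.42 with 1 library left out. LTF, OLFM4, CRISP3 and ARG1 had no count. Of 14 eosinophil, basophil and mast cell granule genes 6 were tested, and CTSG, which mast cells also make and which is counted above, was the only one called. The share called over all tested genes was 68.0%. EPX, CMA1, MS4A2 and CCR3 held only 8 to 25 counts per library, where a change is hard to detect, and RNASE3 held 354 to 408. In the RNase A family, RNASE6 rose by 0.90 beside RNASE2, and RNASE3 was not called.

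**Figure D5:**
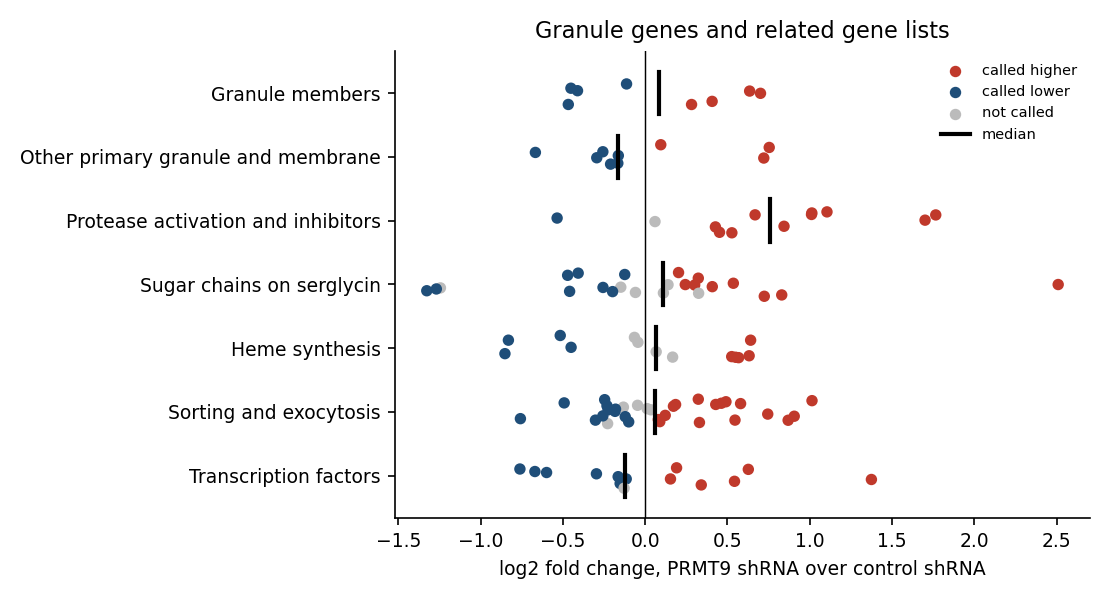
Log2 fold change (PRMT9 shRNA over control shRNA) of each tested granule gene and of the genes of 6 wider lists, with 1 point per gene, red where called higher, blue where called lower and grey where not called, and a black bar at each median. Among the protease activation and inhibitor genes 10 of 12 rose and CTSC fell (median 0.76), beside 33.4% that rose over all tested genes. The other lists also hold genes called in both directions.

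The labelled cell type was checked against marker lists. Of 14 myeloid blast and monocyte markers 12 were tested, 11 rose and FCGR1A fell (-0.62), with a median of 0.86. Over all tested genes 33.4% rose. Named among the 11 were CSF1R (1.86), ITGAM (1.83) and CSF3R (1.18). CD14 (2 and 8 counts in the controls, 20 and 21 after PRMT9 shRNA) and CD34 (9 and 11, then 39 and 50) were low. These 2 passed the filter only with the PRMT9 shRNA libraries, and their values of 1.86 and 1.99 raise the median. The summed level of the 14 markers was 602 and 603 CPM in the controls and 886 and 879.6 CPM after PRMT9 shRNA. It moved with the rises of AZU1, LYZ, RNASE2 and PRTN3 and against the falls of CTSG, MPO, SRGN and ELANE, and its part in either was not tested. Mature neutrophil markers summed to 1.29 and 1.66 CPM in the controls and 2.17 and 2.12 CPM after PRMT9 shRNA. Among erythroid and megakaryocyte markers 8 of 13, HBB and HBA1 among them, were at 0, and the list summed to at most 1.07 CPM. Lymphoid markers summed to 227 and 229 CPM against 212.5 and 214, nearly all of it from NCAM1 (189 against 177 CPM) and PAX5 (38.6 against 34.9 CPM), with CD2 at 0. Epithelial and stromal markers summed to 28.04 and 28.47 CPM against 38.42 and 37.82, with EPCAM, KRT19 and COL3A1 at 0. Of the 4 that were tested 3 rose, beside 33.4% over all tested genes: the keratins KRT18 (0.18) and KRT8 (1.07), and PDGFRB (2.67). PDGFRB (6 and 3 counts in the controls, 24 and 41 after PRMT9 shRNA) passed the filter only through the PRMT9 shRNA libraries. The call of KRT18 was lost under 8 alternatives, among them leaving out control library 1 (0.15) or PRMT9 shRNA library 1 (0.13). The part of this rise in the granule results was not tested.

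For each tested member the protein-coding gene with the most similar level was sought, by Euclidean distance of log2 CPM over the 4 libraries. These were DUS3L for MPO (distance 0.03), RPL7L1 for ELANE (0.05), CCT3 for CTSG (0.05), MGEA5 for PRTN3 (0.08), GRK2 for RNASE2 (0.09), MSN for SRGN (0.20), ANXA4 for AZU1 (0.29) and TMSB4X for LYZ (0.30). CCT3, a chaperonin subunit, was at 658 and 659 CPM in the controls and 472 and 468 CPM after PRMT9 shRNA, close to CTSG in every library. AZU1 and LYZ had no gene nearer than these in level, over 4 points that share 2 conditions.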

How the data were processed

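For the 4 poly(A) libraries the authors deposited unnormalised counts for each Ensembl gene, with RPKM values beside them and coordinates on GRCh38. The submitters' processing notes name Trimmomatic 0.39, STAR 2.7.2a and SAMtools 1.10 but not what each did. Which program counted the reads, and how it treated strand and reads mapping to several places, is not given in the sources used here. The authors' deposited RPKM equalled the count per exon length and library total times a factor of 0.979 to 1.01.

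The counts were tested with edgeR 4.0.16 in R 4.3.3: a filter on low counts (filterByExpr, minimum count 10), TMM scaling, the quasi-likelihood fit with robust estimation over the 4 libraries, and Benjamini-Hochberg adjustment over the 15193 genes that passed, at 0.05. Several edgeR settings were compared after the data were seen, and the current non-legacy fit was taken because it gives the 10327 calls of an earlier analysis of these data. The legacy fit (10313 calls) is among the alternatives. The groups follow the labels. Replicates differed beyond counting noise (chi-square per degree of freedom 2.84 in the controls, 1.57 after PRMT9 shRNA), so each was kept as 1 sample. The script was tested on simulated data.

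The members and all lists were chosen with earlier results of these data known. The text names every member, the genes of each wider list with the lowest adjusted p, all genes of a printed count of 5 or fewer (except 1 that is not reported here), tested genes within 100 kb and the nearest gene in level. Alternatives were other scalings, filters and tools (DESeq2 1.42.0, limma 3.58.1 on counts and on log2(RPKM + 1) or log2(RPKM + 0.1)), a replicate block, and leaving out each library. Transcript matches and GC content came from GENCODE 29.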

Additional observations from a re-analysis of the deposited data

How the results depend on the processing

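All 8 tested members kept their direction under the 19 alternatives. ELANE was the only member that lost its call: its log2 fold change was -0.025 (adjusted p 0.288) with upper-quartile scaling and -0.115 (adjusted p 0.0846) with log2(RPKM + 1) and no filter, and the cause was not tested. With the replicate number as a block the value of AZU1 was 0.701, no member's call changed and 10307 genes were called. The deviations of same-numbered libraries correlated at -0.0307 over genes, so the numbers are not shown to pair the libraries. DESeq2 called 7949 genes, but it was run on the 30023 genes with any count and not on the 15193 that passed the filter. Upper-quartile scaling moved the share of calls that were higher from 49.2% to 57.2%. Of named genes that are no members, PRSS57 changed sign with the GC and length offsets (-0.083), RPL7L1 with upper-quartile scaling (0.013), and RNASE3, which was not called, with upper-quartile scaling (0.07), with a filter at 1 CPM (0.014) and with 1 library left out (-0.053 to 0.023). CSTA, also not called, ranged from -0.008 to 0.134 with 1 library left out. Of 380 counts over the wider lists, 362 stayed within 1.5 times the first value. Protease activation and inhibitor genes called higher numbered 6 with DESeq2 and 6, 6 and 5 on the 3 RPKM scales, against 10. On these scales the specific and gelatinase genes called higher numbered 2, 2 and 1 against 4, the sugar chain genes called lower 5, 5 and 5 against 8 (higher: 5 against 9 with log2(RPKM + 1) and a filter), and the sorting genes called lower 7 against 11 without a filter. The remaining differences were of 1 gene. Depth limits only PRG2 among the members.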
